A study of Homo sapiens with 6 samples.

Results

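mTORC1 is the protein kinase complex through which cells match growth to nutrients and stress. The genes of its core and of the proteins that restrain it were followed in SW480, an established line of human colorectal adenocarcinoma cells, by RNA sequencing of bulk cultures. The 10 genes were chosen by name, from a table of 12982 genes, and all 10 had a row in it. They were the core genes MTOR, RPTOR, MLST8 and AKT1S1, the activating GTPase gene RHEB, the TSC complex genes TSC1 and TSC2, and the stress inhibitor genes DDIT4, SESN1 and SESN2. The cells, labelled WT for genotype, received either the solvent DMSO or the mitochondrial fluorescent probe MPM-1 (WT4 in the labels) for 24 h, with 3 libraries per treatment. The dose is not given in the sources used here, and all results refer to 1 cell line.

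Active mTORC1 sits on the lysosome, where Rag GTPases recruit it when amino acids are present and RHEB switches it on. The kinase mTOR is held together with its substrate-binding partner raptor (RPTOR) and with mLST8, and PRAS40 (AKT1S1) acts on it as an inhibitor until it is phosphorylated. TSC1 and TSC2 form a complex that turns RHEB off. Under stress, REDD1 (DDIT4) acts through the TSC complex, and the sestrins act through the GATOR complexes that govern the Rag GTPases, so both lower mTORC1 activity. DDIT4 and SESN2 are well known as genes that the stress factor ATF4 can induce. RNA levels do not show the activity of the kinase.

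Library totals lay between 32095456 and 40269820 counts for DMSO and between 31733667 and 35403841 for MPM-1. The lowest count of any member in any library was 315, for RPTOR. All 8 markers of colorectal epithelium that were checked, among them EPCAM, KRT8 and CDX2, were present, with a summed level of 4821 to 5547 FPKM (fragments scaled to transcript length and library total) in DMSO and 6736 to 7199 FPKM in MPM-1. The sum followed KRT8, KRT18 and KRT19, whereas the means of EPCAM, VIL1, CDX1 and CDX2 were lower in MPM-1, with CDX2 at 20.8 FPKM in DMSO and 4.07 FPKM in MPM-1. Of 11 markers of fibroblasts, endothelium and leukocytes only COL1A1 had a row, at a level of 0.468 FPKM or less on average. In bulk RNA a change in the level per cell and a change in the share of cells that express a gene cannot be told apart.

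CPM are counts scaled to the library total with TMM factors. A gene was called changed at an adjusted p under 0.05 in edgeR's quasi-likelihood test. By this rule 5 of the 10 members rose and 3 fell after MPM-1, and 2 did not pass. Of all genes tested, 56.5% were called, 27.7% as higher and 28.8% as lower, so a single call carries little weight in this comparison, and the sizes matter more. Among the members, DDIT4 alone was also past 2-fold at an adjusted p under 0.01, which held for 14.3% of all genes, 5.58% as higher and 8.75% as lower. The 8 called members were also the ones whose CPM did not overlap between the treatments, as was so for 64.3% of all genes. In FPKM the libraries of 6 members did not overlap, beside 62.8% of all genes. The median log2 fold change of the 10 members was 0.16, beside -0.026 for all genes.

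**Figure D1:**
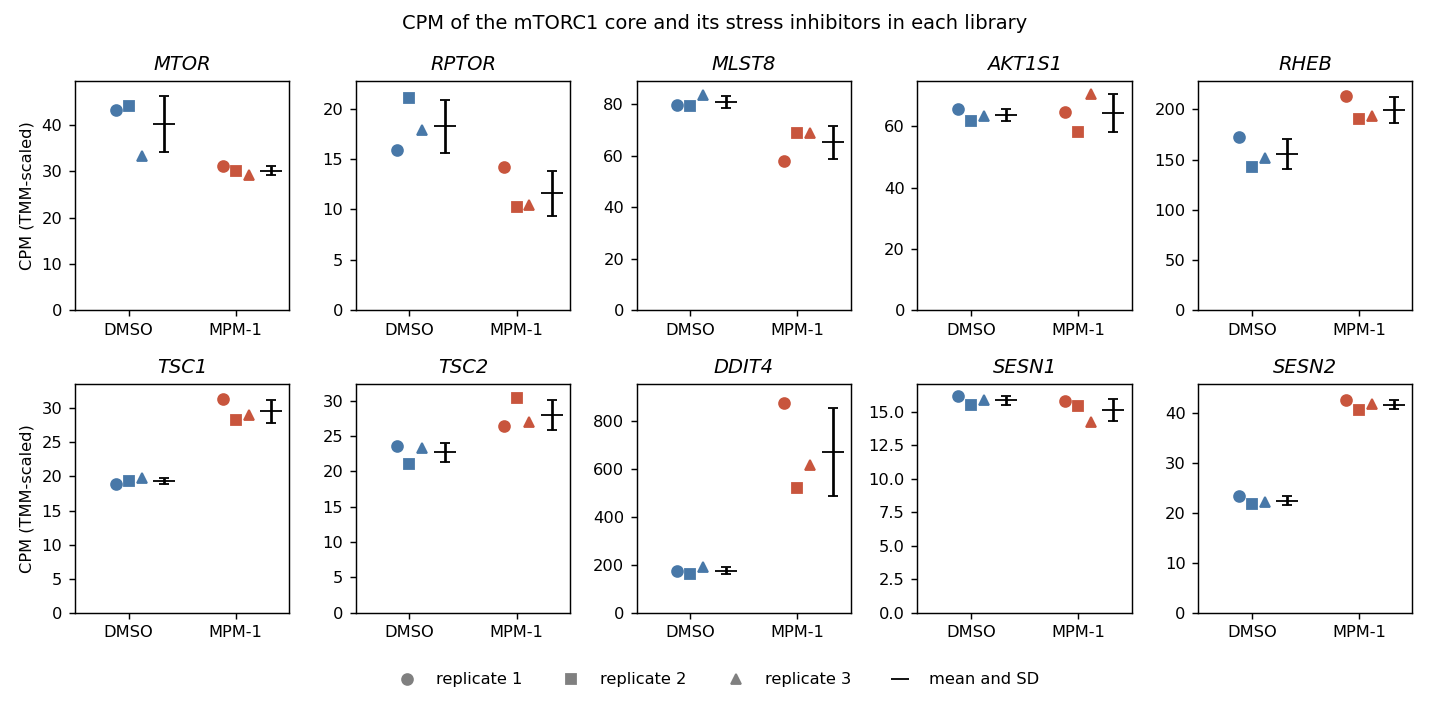
TMM-scaled CPM ( y axis from 0, a separate scale for each gene) of the 10 members in the 3 DMSO (blue) and 3 MPM-1 (red) libraries, with the marker shape giving the replicate and the bars the mean and SD. DDIT4 rose from a mean of 176 to 672 CPM and SESN2 from 22.5 to 41.8 CPM, whereas the libraries of AKT1S1 and SESN1 overlapped.

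Of the stress inhibitors, DDIT4 and SESN2 rose. DDIT4, which encodes REDD1, had 174, 162 and 193 CPM in the DMSO libraries and 876, 521 and 619 CPM in the MPM-1 libraries. Each MPM-1 library was far above each DMSO library, and MPM-1 replicate 1 was the highest of all. The mean went from 176 ± 15.4 to 672 ± 184 CPM (SD, n = 3 each). On the log2 scale this was a rise of 1.93 with a standard error of 0.17 (edgeR, Benjamini-Hochberg adjusted p = 1.70e-05). Of all genes, 98.6% had a lower signed log2 fold change, falls included. The spread between the MPM-1 libraries was also the widest among the members, with a coefficient of variation of 27.3%, against 8.76% in DMSO. Without MPM-1 replicate 1 or any other single library, the log2 fold change stayed between 1.71 and 2.11.

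SESN2, which encodes sestrin 2, a leucine-binding inhibitor of GATOR2, had 23.5, 21.9 and 22.2 CPM in DMSO and 42.7, 40.7 and 41.9 CPM in MPM-1. The treatments were widely apart and the replicates nearly equal. SESN2 rose 1.85-fold, or by 0.89 with a standard error of 0.083 on the log2 scale (edgeR adjusted p = 2.33e-05), with a coefficient of variation of 2.32% in MPM-1. SESN1, the paralog that encodes sestrin 1, had 16.2, 15.5 and 15.9 CPM in DMSO and 15.8, 15.4 and 14.2 CPM in MPM-1. These libraries overlapped, and the log2 fold change of -0.066 did not pass (adjusted p = 0.651 from edgeR), with a 95% interval of -0.33 to 0.19. An interval of that width leaves out a rise as large as that of SESN2.

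The third sestrin gene, SESN3, is not one of the 10 members but belongs to the list of stress inhibitors, and it fell from 19.8 ± 3.39 to 10.1 ± 1.96 CPM (SD, n = 3 each), by 0.97 on the log2 scale (edgeR adjusted p = 0.00138). The 3 sestrin genes thus gave a rise, a fall and a difference that did not pass. The ratio of SESN2 to SESN1 counts inside a library, which does not depend on how libraries are scaled, had a log2 value of 0.54, 0.50 and 0.48 in DMSO and of 1.43, 1.40 and 1.56 in MPM-1. The difference was 0.96 on the log2 scale, with p = 0.10 in a two-sided exact permutation test, the smallest value that 3 libraries against 3 allow, and 0.15 after adjustment over the 6 ratios compared. Expressed per transcript length, SESN2 was 1.14 times SESN1 in DMSO and 2.38 times SESN1 in MPM-1, as means of the FPKM ratio.

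The stretches upstream of DDIT4 and SESN2 are shown because these were the members with the largest rises. Each runs from 250 to 11 bases before the RefSeq start (GRCh38.p14, plus strand), and capitals mark a match to a searched motif.
DDIT4 chr10:72273674-72273913: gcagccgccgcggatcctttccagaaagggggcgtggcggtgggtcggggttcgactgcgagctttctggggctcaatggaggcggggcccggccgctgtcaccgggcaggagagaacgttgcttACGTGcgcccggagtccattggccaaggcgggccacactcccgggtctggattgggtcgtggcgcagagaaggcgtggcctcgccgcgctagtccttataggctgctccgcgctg
SESN2 chr1:28259268-28259507: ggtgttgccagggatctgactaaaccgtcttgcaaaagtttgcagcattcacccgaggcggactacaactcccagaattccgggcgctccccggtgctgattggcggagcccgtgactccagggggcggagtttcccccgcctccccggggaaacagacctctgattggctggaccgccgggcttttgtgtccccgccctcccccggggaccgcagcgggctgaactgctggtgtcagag

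The motifs searched on both strands, in windows of 250 bases before to 50 after the start, were the core of the element bound by ATF4 and C/EBP factors (TGATGNAA), the hypoxia response core (ACGTG), the antioxidant response core (TGACNNNGC) and the E-box (CACGTG), which contains the hypoxia core. Among 34796 promoters they were found in 3.63%, 21.4%, 13.3% and 7.20%. DDIT4 held 1 hypoxia core, its first base 125 bases before the start, and none of the other motifs, and SESN2 held none of the 4. RHEB held a hypoxia core, its first base 81 bases before the start, and an antioxidant core, its first base 10 bases after it. Of the 3 SESN1 promoters, 1 held an antioxidant core, its first base 159 bases before the start. MTOR, RPTOR and TSC1 held none. Of the 2 TSC2 promoters, 1 held motifs and the other held none. In TSC2 a run of 19 bases, shown because it held all 4 motifs, overlapping one another, reads GCCCCGTCACGTGATGCAA (chr16:2047864-2047882, plus strand). It opens with the antioxidant core on the minus strand, runs into the E-box, which holds the hypoxia core on both strands, and ends with TGATGCAA, a match to the ATF4 core. A match is only a description of the letters, and elements may lie outside these windows. Promoters were found for 8 of the members, and not for MLST8 and AKT1S1.

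**Figure D2:**
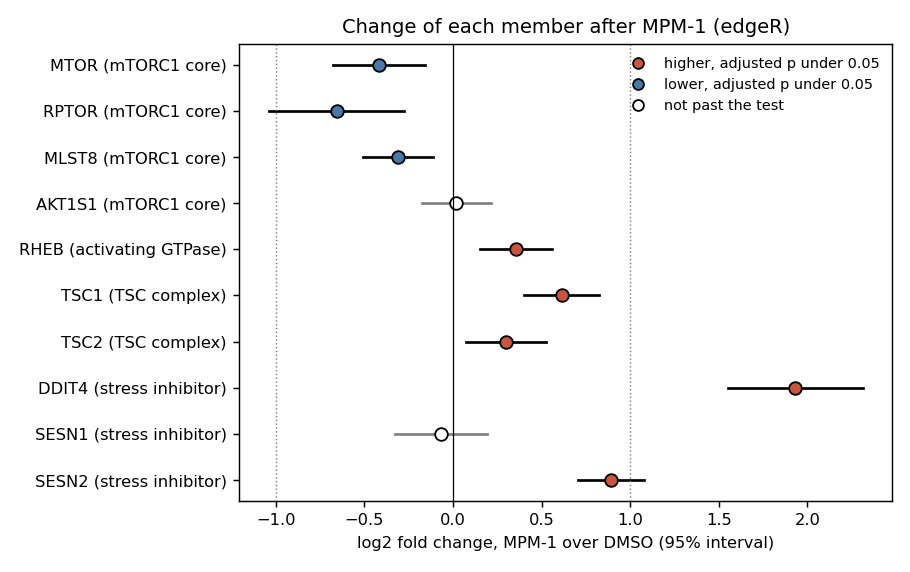
Log2 fold change of MPM-1 over DMSO with its 95% interval for each member (edgeR, 3 libraries per treatment), filled where the adjusted p was under 0.05, red for higher and blue for lower, with dotted lines at a change of 1 in either direction. The 3 lower genes belong to the mTORC1 core, at -0.66 to -0.31, and DDIT4 alone lies past 1.

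In the mTORC1 core, MTOR, RPTOR and MLST8 fell and AKT1S1 did not pass. RPTOR, whose product raptor brings substrates to the kinase, had 15.9, 21.1 and 17.9 CPM in DMSO and 14.2, 10.2 and 10.4 CPM in MPM-1. The treatments did not overlap, although DMSO replicate 1 and MPM-1 replicate 1 lay close together. RPTOR fell to 0.635 of the DMSO level, by 0.66 with a standard error of 0.17 on the log2 scale (edgeR adjusted p = 0.00880), which was the largest fall among the members in counts. With each library left out in turn the value stayed between -0.81 and -0.54 and past the test. For limma on log2(FPKM + 0.1) RPTOR had -0.42 and did not pass (adjusted p = 0.159), and MLST8 had the largest fall, at -0.50 (limma adjusted p = 0.00180).

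MTOR, the gene of the kinase itself, had 43.3, 44.2 and 33.4 CPM in DMSO and 31.2, 30.2 and 29.1 CPM in MPM-1. DMSO replicate 3 was nearer to the MPM-1 libraries than to the other DMSO libraries. In the fit MTOR fell by 0.42 on the log2 scale, with a standard error of 0.12 (edgeR adjusted p = 0.0119). The call was lost without DMSO replicate 2 (adjusted p = 0.0573) or without MPM-1 replicate 3 (adjusted p = 0.0515), where the log2 fold change was -0.34 and -0.38.

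MLST8, the subunit that mTORC1 shares with mTORC2, had 79.7, 79.4 and 83.5 CPM in DMSO and 57.8, 68.9 and 68.9 CPM in MPM-1. All MPM-1 libraries were lower, replicate 1 the most. MLST8 fell by 0.31 on the log2 scale, with a standard error of 0.087 (edgeR adjusted p = 0.0132), and the fall was called in all 16 alternative settings. AKT1S1 had 65.7, 61.9 and 63.3 CPM in DMSO and 64.6, 58.3 and 70.6 CPM in MPM-1. Its MPM-1 libraries lay on both sides of the DMSO libraries. The log2 fold change was 0.020 (adjusted p = 0.862 from edgeR) with a 95% interval of -0.17 to 0.21, and its sign turned with library size alone as scaling and with FPKM. The count ratio of AKT1S1 to MTOR was higher in each MPM-1 library than in any DMSO library, by 0.42 on the log2 scale (exact permutation p = 0.10, adjusted 0.15). In FPKM this difference was 0.18 and the libraries overlapped (exact permutation p = 0.30). For RPTOR and MLST8 against MTOR the differences were -0.25 and 0.092 with overlapping libraries (exact permutation p = 0.20 and 0.80).

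RHEB, TSC1 and TSC2 rose in counts, so that the activator and these genes of the complex that turns it off moved the same way in RNA. The TSC1 call was lost in 4 and the TSC2 call in 9 of the 16 alternative settings, and TBC1D7 of the same complex did not pass. RHEB had 173, 143 and 152 CPM in DMSO and 214, 190 and 194 CPM in MPM-1, with no overlap. The rise was 0.36 on the log2 scale, with a standard error of 0.091 (edgeR adjusted p = 0.00792), and was called in all 16 alternative settings. The annotation lists 3 pseudogenes named for RHEB, and how reads shared with them were counted is not known. RHEBL1, a related GTPase gene outside the 10 members, fell from 6.23 ± 0.654 to 3.12 ± 0.959 CPM (SD, n = 3 each), a log2 fold change of -0.99 (adjusted p = 0.00680 from edgeR).

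TSC1, which encodes hamartin, the scaffold of the complex, had 18.8, 19.4 and 19.7 CPM in DMSO and 31.4, 28.2 and 29.0 CPM in MPM-1. The DMSO libraries were nearly equal and all MPM-1 libraries were higher. TSC1 rose by 0.61 on the log2 scale, with a standard error of 0.094 (edgeR adjusted p = 0.000448). In the 4 limma fits on FPKM the value was 0.30 to 0.38 and did not pass (adjusted p = 0.0665 to 0.0744). TSC2, which encodes tuberin, the subunit that acts on RHEB, had 23.7, 21.1 and 23.3 CPM in DMSO and 26.5, 30.4 and 27.0 CPM in MPM-1. The gap between the treatments was narrow. TSC2 rose by 0.30 on the log2 scale, with a standard error of 0.10 (edgeR adjusted p = 0.0284). This call was lost when DMSO replicate 2 (adjusted p = 0.110), DMSO replicate 3 (0.0538) or replicate 2 of MPM-1 (0.0699) was left out, and with the replicate number as a block (0.0554). With library size alone as scaling the value was 0.15 (edgeR adjusted p = 0.243).

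The count ratio of TSC1 to TSC2 was higher in each MPM-1 library than in any DMSO library, by 0.31 on the log2 scale (exact permutation p = 0.10, adjusted 0.15). In FPKM these ratios overlapped. TBC1D7, the remaining subunit of the TSC complex, went from 33.3 ± 1.48 to 31.2 ± 0.965 CPM (SD, n = 3 each) and did not pass (log2 fold change -0.094, adjusted p = 0.365 from edgeR). For DDIT4 against TSC2, through which its product acts, the ratio rose by 1.60 on the log2 scale, with no overlap between treatments (exact permutation p = 0.10, adjusted 0.15).

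**Figure D3:**
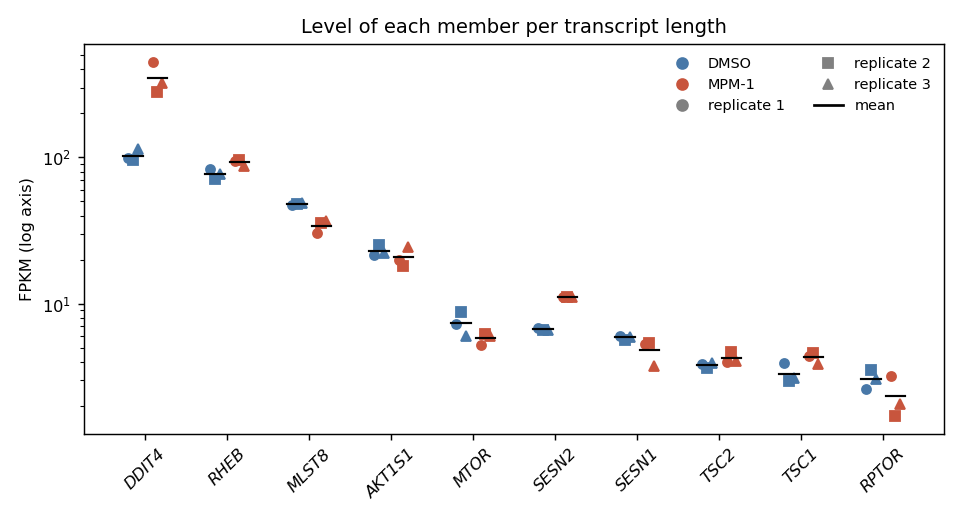
FPKM (log axis) of the 10 members in each DMSO (blue) and MPM-1 (red) library, ordered by the DMSO mean (black lines mark means, marker shape the replicate). DDIT4, RHEB, MLST8 and AKT1S1 kept the top of the order in both treatments, and SESN2 lay above MTOR in MPM-1.

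Levels of different genes were compared per transcript length, as FPKM. In DMSO the order was DDIT4 (103 ± 9.37 FPKM, SD, n = 3), RHEB (77.2 ± 6.03), MLST8 (48.0 ± 0.954) and AKT1S1 (23.0 ± 1.98), with no overlap between neighbours. MTOR (7.34 ± 1.37 FPKM) and SESN2 (6.65 ± 0.118 FPKM) overlapped. SESN1 (5.86 ± 0.203 FPKM) lay just below SESN2 without overlap, and TSC2, TSC1 and RPTOR came last at 3.81, 3.32 and 3.05 FPKM on average, each overlapping the next. Among the core genes MLST8 was thus 6.71 times and RPTOR 0.422 times MTOR in DMSO, as means of the ratio inside a library. Already in DMSO the FPKM of DDIT4 was above that of 94.4% of all genes.

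In MPM-1, DDIT4 reached 352 ± 89.4 FPKM (SD, n = 3), above 98.3% of all genes, followed by RHEB at 92.5 ± 5.01, MLST8 at 34.2 ± 3.43 and AKT1S1 at 20.9 ± 3.27. SESN2 came next at 11.1 ± 0.0470 FPKM, with no overlap with MTOR at 5.80 ± 0.498 FPKM. From MTOR down to TSC2 each gene overlapped the next, in the order MTOR, SESN1, TSC1, TSC2. RPTOR was lowest at 2.32 ± 0.780 FPKM, with no overlap with TSC2. In both treatments RPTOR, TSC1 and TSC2 thus had the lowest mean FPKM of the group. MTOR lay in the middle, at rank 5 in DMSO and 6 in MPM-1. The ratio of DDIT4 to TSC2 went from 27.0 to 84.2.

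**Figure D4:**
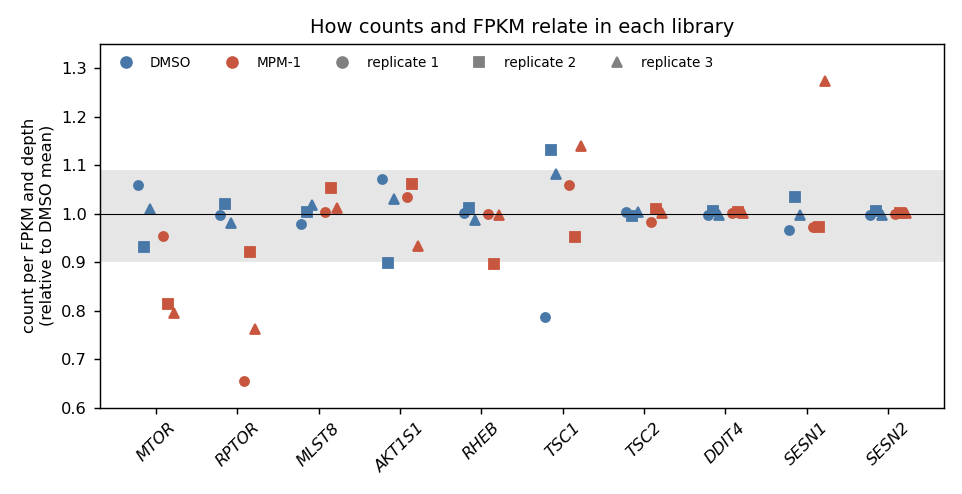
Count divided by FPKM and by library total, relative to the gene's DMSO mean (y axis), for each member in the DMSO (blue) and MPM-1 (red) libraries, with the middle 90% of all genes and libraries shaded (0.902 to 1.09). DDIT4 and SESN2 stay within 0.997 to 1.01, while RPTOR falls to 0.654 in MPM-1 replicate 1.

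Counts and FPKM did not tell the same story for every member. The count per FPKM, scaled by library total, lay within 0.997 and 1.01 of the DMSO mean for DDIT4 and SESN2 in all libraries. It was 0.654, 0.922 and 0.761 for RPTOR in MPM-1, 0.954, 0.814 and 0.796 for MTOR in MPM-1, 0.787 for TSC1 in DMSO replicate 1 and 1.27 for SESN1 in MPM-1 replicate 3. In GENCODE 29, SESN2 has 1 annotated transcript and DDIT4 3, and RPTOR has 12, MTOR 7, TSC1 47 and SESN1 7. TSC2 with 69 and MLST8 with 35 stayed inside the range of 0.902 to 1.09 that held the middle 90% of all genes and libraries. The annotation behind the counts is not known, and whether transcript number bears on the ratio was not tested. The FPKM of RPTOR in MPM-1 were 3.20, 1.71 and 2.05, against 2.59, 3.51 and 3.06 in DMSO, and overlapped. In FPKM, MTOR and TSC1 overlapped between treatments too, and SESN1 did not, at 5.63 to 6.02 in DMSO and 3.72 to 5.38 in MPM-1.

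With limma on log2(FPKM + 0.1) over 11497 genes, DDIT4, SESN2, RHEB and MLST8 were still called. Besides RPTOR, MTOR (-0.32, adjusted p = 0.0975 from limma), TSC1 (0.37, adjusted p = 0.0677) and TSC2 (0.15, adjusted p = 0.320) kept their direction but did not pass. With a pseudocount of 0.01 in place of 0.1, MTOR, TSC1 and TSC2 had nearly the same values, at -0.33, 0.38 and 0.15. In the fit on log2(FPKM + 0.1) the median of all genes was -0.15, and scaling counts by library size alone put it at -0.18, against -0.026 in the TMM fit. Values relative to the median of all genes by construction take out a scaling that moves all genes alike. On this scale TSC2 was higher by 0.33 with TMM, 0.33 with library size alone and 0.29 in FPKM. DDIT4 was higher by 1.96, 1.95 and 1.89. In the same order RPTOR had -0.63, -0.64 and -0.27, and MTOR had -0.39, -0.39 and -0.18. For RPTOR and MTOR, counts and FPKM thus still differed after the median was taken off. Of all calls at an adjusted p under 0.05, 49.0% were higher with TMM, 34.7% with library size alone and 36.7% for limma on log2(FPKM + 0.1).

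The members are spread over 8 chromosomes (GENCODE 29, GRCh38). DDIT4 (ENSG00000168209, chromosome 10, 72273920 to 72276036) is the shortest gene. Its exons share 847 bases, 41.2% of its exon bases, with the antisense gene DDIT4-AS1, and since the use of strand in counting is not known, reads from the 2 strands cannot be told apart. SESN2 (ENSG00000130766) lies on chromosome 1 at 28259527 to 28282491 and overlaps no other gene. RPTOR (ENSG00000141564) is the longest, on chromosome 17 at 80544819 to 80966371, and MTOR (ENSG00000198793) lies on chromosome 1 at 11106535 to 11262507. TSC2 (ENSG00000103197, chromosome 16, 2047465 to 2089487) shares 402 exon bases with NTHL1 and 778 with PKD1 on the other strand, which had 5901 and 6635 counts over the 6 libraries beside 5267 for TSC2, so its small change is uncertain in that respect. MLST8 shares 164 bases with BRICD5, and AKT1S1 shares 392 with TBC1D17.

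**Figure D5:**
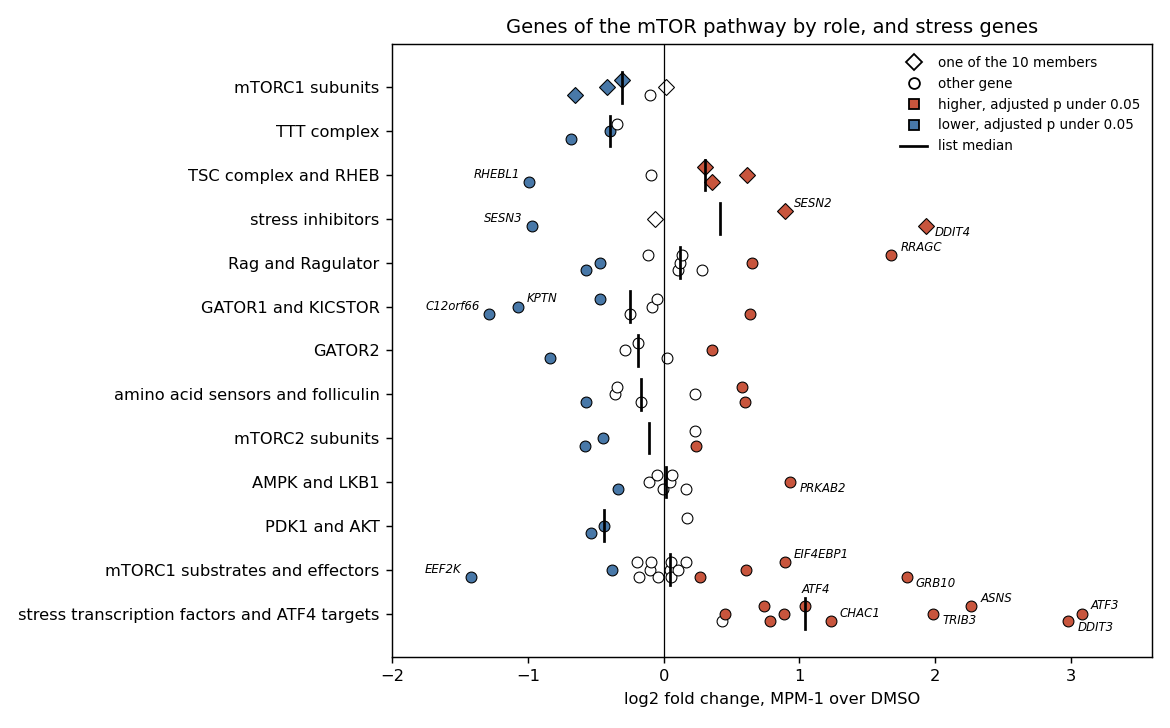
Log2 fold change (x axis) of measured genes of the mTOR pathway, grouped by role, and of stress genes, with diamonds for the 10 members, fill for an adjusted p under 0.05 (red higher, blue lower) and a bar at each list's median. Most lists hold changes in both directions, and in the list of stress genes 10 of 11 rose, beside 27.7% of all genes.

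The rest of the mTOR pathway was followed in lists written from general knowledge. Outside the 10 members, 66 further genes of the pathway were measured, of which 12 rose and 18 fell at an adjusted p under 0.05, a share of calls below the 56.5% of all genes. Their median log2 fold change was -0.091. Past 2-fold at an adjusted p under 0.01 there were 2 higher and 3 lower genes, beside 5.58% and 8.75% of all genes. The counts of calls in each list below are to be read beside the 27.7% of all genes called higher and 28.8% called lower. The lists are short, and none was tested as a set.

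Of the lysosomal Rag GTPases and Ragulator, 2 of 9 genes rose, 2 fell and 5 did not pass. RRAGC, one of the GTPases that carry mTORC1 to the lysosome, rose from 20.0 ± 2.19 to 63.8 ± 5.57 CPM (SD, n = 3 each), a log2 fold change of 1.68 (adjusted p = 2.87e-06 from edgeR). The Ragulator gene LAMTOR3 rose by 0.65 and LAMTOR2 and LAMTOR4 fell by 0.57 and 0.47 on the log2 scale. RRAGA, RRAGB and RRAGD, the other Rag genes, had log2 fold changes of 0.13, 0.12 and 0.11 and did not pass.

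In GATOR1, which turns the Rag GTPases off, and KICSTOR, which tethers it, 1 of 7 genes rose and 3 fell. The KICSTOR genes KPTN and C12orf66 fell by 1.07 and 1.29 on the log2 scale (adjusted p = 0.000133 and 0.00381 from edgeR). In GATOR2, on which sestrins act, 1 of 5 genes rose and 1 fell, namely SEH1L, which is also a nuclear pore subunit (0.36), and WDR24 (-0.84). Among amino acid sensors and the folliculin genes 2 of 7 rose and 1 fell. FLCN and FNIP1, partners in the complex that acts on RRAGC and RRAGD, rose by 0.60 and 0.58, and SLC38A9, an arginine sensor of the lysosome, fell by 0.57 on the log2 scale.

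The TTT complex assembles mTOR and related kinases. Its genes TELO2 and TTI1 fell by 0.68 and 0.39 on the log2 scale (adjusted p = 0.000859 and 0.0155 from edgeR), and TTI2 had -0.34 (adjusted p = 0.0618). In mTORC2, 1 of 4 genes rose and 2 fell, with MAPKAP1 at 0.24, PRR5 at -0.45 and PRR5L at -0.58. Of the kinases upstream, AKT1, which relieves the block by the TSC complex and PRAS40, fell from 233 ± 13.0 to 161 ± 14.4 CPM and AKT2 from 76.6 ± 4.50 to 56.5 ± 6.76 CPM (SD, n = 3 each), by 0.54 and 0.44 on the log2 scale. In the AMPK and LKB1 list PRKAB2, a regulatory subunit of AMPK, rose by 0.93 (adjusted p = 6.06e-05 from edgeR), STK11, the gene of LKB1, had -0.34 (adjusted p = 0.00951 from edgeR), and 6 of 8 did not pass.

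Among 16 substrates and effectors of mTORC1, 4 rose, 2 fell and 10 did not pass, at a median of 0.046. GRB10, an adaptor that mTORC1 stabilises and that dampens insulin signaling, rose from 55.1 ± 6.44 to 190 ± 19.8 CPM (SD, n = 3 each), a log2 fold change of 1.79 (adjusted p = 2.21e-06 from edgeR). EIF4EBP1, the translation repressor that mTORC1 holds off, rose from 124 ± 7.95 to 230 ± 7.13 CPM (log2 fold change 0.89). EEF2K, the kinase that slows elongation, fell from 20.2 ± 2.21 to 7.53 ± 0.319 CPM (-1.42), and PDCD4, a translation inhibitor, had -0.38. The S6 kinase genes RPS6KB1 and RPS6KB2 did not pass, at -0.18 and -0.044.

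Genes for stress factors and ATF4 targets were set beside DDIT4 and SESN2. Of 11 measured, 10 rose and none fell, beside 27.7% of all genes called higher and 28.8% called lower. The median log2 fold change was 1.04, and 6 rose past 2-fold at an adjusted p under 0.01, beside 5.58% of all genes. DDIT3, which encodes the stress factor CHOP, rose from 40.4 ± 4.85 to 319 ± 87.2 CPM and ATF3 from 5.67 ± 1.97 to 47.6 ± 6.38 CPM (SD, n = 3 each), log2 fold changes of 2.98 and 3.08. ATF4 itself, named here after its values were seen, rose from 415 ± 14.0 to 853 ± 94.8 CPM (log2 fold change 1.04). HIF1A rose by 0.45 on the log2 scale. Earlier results of these data had shown such stress genes as higher, so that their rise is no independent support for that of DDIT4 and SESN2.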

How the data were processed

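SW480 cells were treated with DMSO or MPM-1 for 24 h, in 3 libraries per treatment, and grouped by the sample labels. The authors deposited 1 table with the whole-number count and the FPKM (fragments scaled to transcript length and library total) of each gene in each library. Columns of the authors' own comparison (FDR, which is an adjusted p-value, and log2 fold change) were not used. The submitters' processing notes name HISAT2 and DESeq2 without versions, and a mouse build (mm10), although the identifiers are human. The counting tool, its use of strand and the annotation are not given in the sources used here. Every gene in the table had at least 115 counts in all.

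Counts were tested with edgeR 4.0.16 (quasi-likelihood, TMM scaling, filterByExpr, which removed no gene; R 4.3.3) on all 12982 genes and 6 libraries without covariates, with Benjamini-Hochberg adjustment. The standard error is the log2 fold change divided by the root of the F statistic. Ratios between members were compared by a two-sided exact permutation test over libraries, with 0.5 added to each count. The alternatives were DESeq2 1.42.0, other scalings and filters, a replicate block, each library left out, and limma 3.58.1 on log2(FPKM + pseudocount). The test was tried on simulated counts with far fewer changed genes than were called here, so that trial is no support for the calls. The genes named are the 10 members, in each list the 2 largest rises and falls among genes past an adjusted p of 0.05 whose libraries did not overlap, and the 5 genes nearest to DDIT4. Other genes named (ATF4, HIF1A, TBC1D7, TTI2, RRAGA, RRAGB, RRAGD, RPS6KB1, RPS6KB2) were added after their values were seen. The members and lists were chosen with earlier results of these data known. Totals and intervals cover counting error or the spread between libraries, and nothing says whether the libraries came from separate cultures. Positions were taken from GENCODE 29 (GRCh38) by identifier. Results that need items withheld for evaluation are not reported here.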

Additional observations from a re-analysis of the deposited data

How the results depend on the processing

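DDIT4, SESN2, RHEB and MLST8 kept their direction and their call in all 16 alternative settings (other scalings and filters, DESeq2, a replicate block, each library left out, limma on FPKM). The count of members changed at an adjusted p under 0.05 was 8, beside 56.5% of all genes. At an adjusted p under 0.01 without a fold threshold it was 5, and the share of all genes there was not computed. In each of the 4 limma fits on FPKM the count of members was 4. The fit on log2(FPKM + 0.1) called 2345 genes higher and 4042 lower, of 11497 tested. RPTOR and TSC1 were not called in the 4 limma settings, MTOR in 6 settings and TSC2 in 9, with their direction kept. AKT1S1, which was not called in any setting, turned to -0.13 with library size alone, to -0.034 without MPM-1 replicate 3, to -0.15 for limma on log2(FPKM + 0.1) with and without a filter on FPKM and on log2(FPKM + 0.01), and to -0.14 on log2(FPKM + 1). The ratio of MLST8 to MTOR turned from 0.092 to -0.17 with FPKM in place of counts. The cause was not tested. Leaving out libraries left 6 to 8 members called, beside 3021 to 3611 higher and 3078 to 3575 lower genes of all 12982.

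The replicate numbers did not pair the samples. Deviations from the treatment means correlated by 0.021, 0.11 and -0.074 across genes between samples of the same number, and not every sample correlated best with its own number. With the replicate number as a block, 7 members and 3475 higher and 3642 lower genes were called, against 8, 3596 and 3740 without it, and TSC2 was the member lost (0.30, adjusted p = 0.0554). A block cannot move the mean difference of a ratio (0.96 for SESN2 to SESN1), and its smallest exact p is 0.25. For limma on FPKM 2341 to 2486 genes were higher in all, against 3596. Past 2-fold at an adjusted p under 0.01, limma on log2(FPKM + 1) called 351 higher and 716 lower genes, against 725 and 1136. With pseudocounts of 0.1 and 0.01 the higher genes were 445 and 454. The depth allows small changes to be counted, but with 3 libraries a treatment no exact test of a single ratio can reach 0.05.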

Other observations

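The genes whose pattern over the 6 libraries lay nearest to that of DDIT4, by Euclidean distance of centred log2 CPM, were JUNB, RNF223, TSC22D3, PHLDA2 and SYNE1, at distances of 0.276 to 0.327. JUNB, an AP-1 transcription factor, had 162, 143 and 147 CPM in DMSO and 656, 445 and 494 CPM in MPM-1. TSC22D3, known as a glucocorticoid-induced gene, had 12.1, 11.4 and 13.6 CPM in DMSO and 49.2, 33.9 and 43.7 CPM in MPM-1. PHLDA2, an imprinted growth regulator, went from a mean of 312 to 1057 CPM. In each of the 5 genes, as in DDIT4, MPM-1 replicate 1 was the highest library. The distance was used to choose them, the points share libraries, and no test was made.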
